A study of Sus scrofa with 10 samples.

Results

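Cyclins, cyclin-dependent kinases (CDKs) and the proteins that switch them on or off were examined in right ventricular tissue from CTEPH pigs (chronic thromboembolic pulmonary hypertension, a disease of blocked lung arteries that strains the right side of the heart) and from Sham pigs. The genes were taken from a list of 46 symbols, and 42 of them had a row in the expression table. CCNA1, CDKN2A, PKMYT1 and CDK5 had no row under their symbols and are not analysed here. The 5 CTEPH pigs gave libraries s1, s3, s4, s5 and s9 and the 5 Sham pigs gave libraries s2, s6, s7, s8 and s10, with 1 bulk RNA library from a right ventricular biopsy of each pig. The labels do not give how CTEPH was produced, what the Sham procedure was, or the sex, age, strain or batch of the pigs. The p-values measure the spread between these pigs. Values are deposited log2 expression values, quantile-normalized across the libraries, and per-library values below are listed in the order of libraries just given.

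A cyclin binds and activates its CDK, and the sequence of cyclins carries a cell through division. D cyclins with CDK4 or CDK6 act in G1, E cyclins with CDK2 at the entry to S phase, A cyclins with CDK2 and CDK1 in S phase and G2, and B cyclins with CDK1 in mitosis. Inhibitors of the CIP/KIP and INK4 families hold these kinases in check, WEE1 and the CDC25 phosphatases set the inhibitory phosphorylation of CDK1 and CDK2, and a further set of cyclins and CDKs serves transcription and not division. Adult cardiomyocytes rarely divide, while fibroblasts, endothelial cells and leukocytes of the heart can. In bulk tissue, more dividing cells and more transcript per cell cannot be told apart.

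Depth did not separate the groups. The deposited values up to a log2 value of 11 could be read back as whole read counts, all of which may be too low by the same factor of 2, and relative depth from these counts averaged 1.05 ± 0.300 (SD, n = 5) in CTEPH and 1.01 ± 0.300 (SD, n = 5) in Sham, without a difference past the spread (exact permutation p = 0.833, two-sided), with the lowest depth, 0.724, in CTEPH library s9 and the highest, 1.53, in CTEPH library s4. All 11 measured cardiomyocyte markers were abundant, with a mean log2 value over the list of 17.41 to 17.86 in CTEPH and 17.34 to 17.76 in Sham. MYH7 had no row under its symbol.

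The B cyclins, CDK1 and both measured S/G2 genes were several-fold higher in CTEPH, while the mitotic phosphatases CDC25B and CDC25C, the D cyclins and the kinases CDK4 and CDK6 did not pass the test. Of the 42 genes, 10 rose (23.8%) and 0 fell at an adjusted p under 0.05 (limma, Benjamini-Hochberg over all genes), against 2.83% of all genes rising and 1.79% falling, 4.62% in all. The 42 genes were chosen with earlier results of these data known, so these shares and the counts that follow are not separate support. The rising genes were CCNE2, CCNA2, CCNF, CCNB1, CCNB2, CCNB3, CDK1, CKS2, CDKN3 and CDKN1A. In 9 of them, all but CDKN1A, every CTEPH library lay above every Sham library, which holds for 3.70% of all genes. The reverse, every CTEPH library below every Sham library, held for none of the 42 genes and for 2.87% of all genes, so that 6.57% of all genes had groups that did not overlap. At an unadjusted p under 0.05 there were 20 of the 42 genes, against 20.3% of all genes. Over the 42 genes the median log2 fold change was 0.16, against -0.03 over all genes, and 6 of them rose at least 4-fold, as did 156 of all genes.

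**Figure D1:**
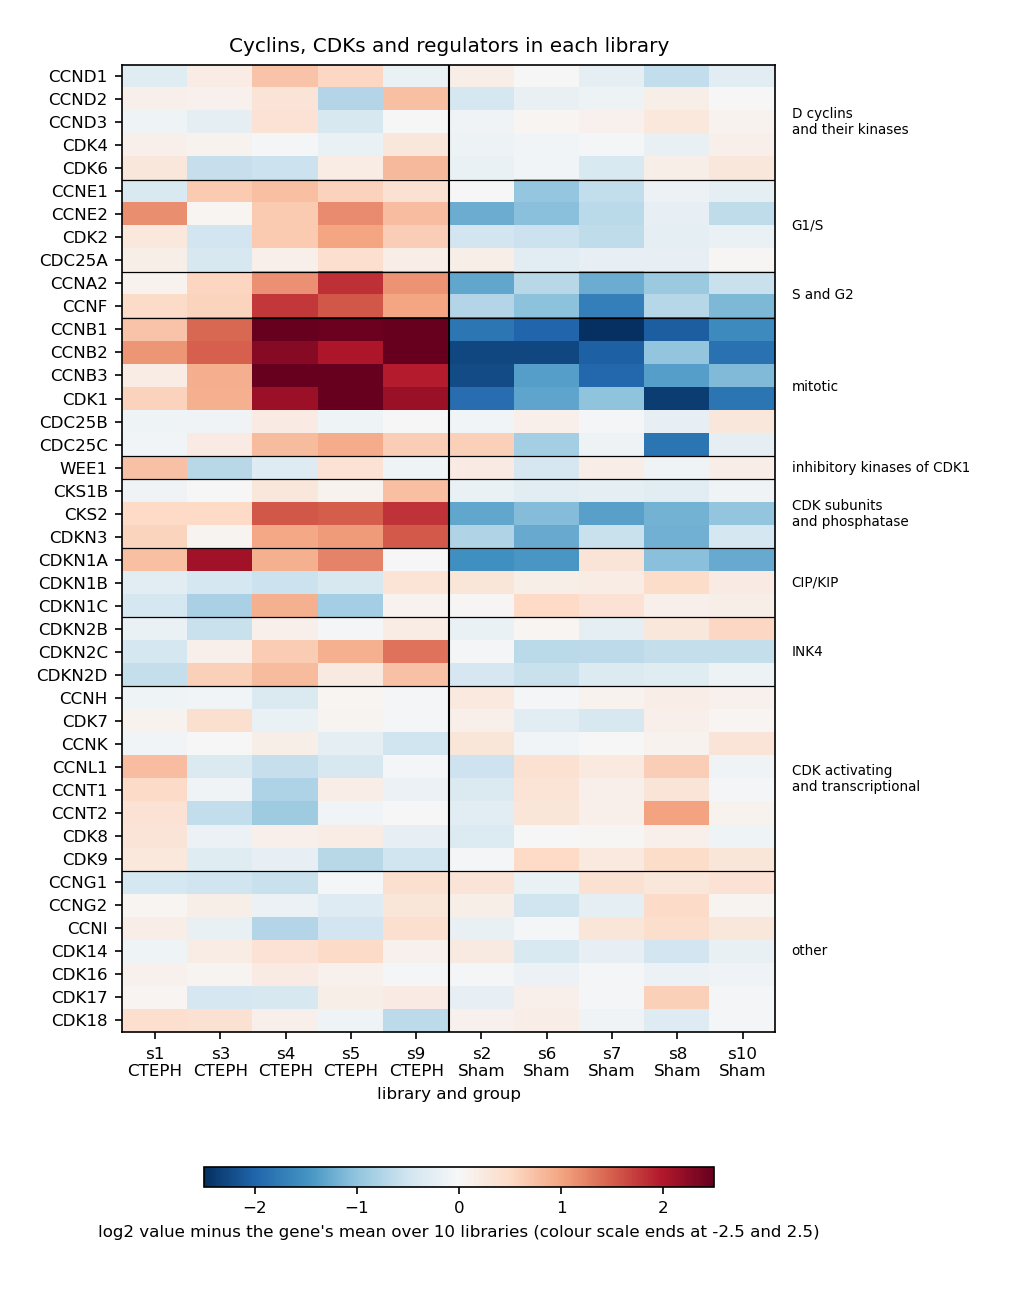
Deposited log2 value of each of the 42 genes (down the page, by role) in each library (across, CTEPH left of Sham), as the difference from the gene's mean over the 10 libraries. The B cyclins and CDK1 are the darkest block, with CTEPH libraries s4, s5 and s9 highest and all 5 Sham libraries low, while the D cyclins and the transcriptional genes show no such block.

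The 3 B cyclin genes and CDK1, the kinase that they activate to start mitosis, had the largest differences of the 42 genes, and all 4 rose. With CDC25B and CDC25C the group of 6 had a median of 3.30 in log2 fold change. CCNB1 (chromosome 16, 47338239 to 47348385 of Sscrofa11.1) had log2 values of 8.16, 8.88, 10.04, 9.89 and 10.32 in the CTEPH libraries, against 5.62, 5.45, 4.81, 5.37 and 5.84 in the Sham libraries. The lowest CTEPH pig, s1, was thus more than 2 log2 units above the highest Sham pig, s10. The log2 fold change of CCNB1 was 4.04 ± 0.38 (SE; limma, Benjamini-Hochberg adjusted p = 9.9e-05), which is 16.4-fold. As counts, it had 139 to 791 reads in CTEPH libraries and 10 to 33 in Sham libraries, and the depth-scaled ratio of the sums was 18.5.

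CCNB2, the second B cyclin of dividing somatic cells (chromosome 1, 112907047 to 112942218), stood at 7.12, 7.51, 8.30, 8.05 and 8.55 in CTEPH, against 3.75, 3.75, 3.98, 5.03 and 4.15 in Sham. Its log2 fold change was 3.77 ± 0.35 (adjusted p = 9.9e-05, limma with Benjamini-Hochberg), on at least 66 reads in each CTEPH library and 5 to 13 in Sham libraries. CCNB3, known in mouse mainly from meiosis, lies on chromosome X (43922729 to 43988939) and stood at 5.03, 5.75, 7.33, 7.34 and 6.82 in CTEPH, against 2.62, 3.48, 2.89, 3.48 and 3.75 in Sham. The CCNB3 groups did not overlap either, but the gene rested on few reads, 15 to 134 in CTEPH libraries and 2 to 9 in Sham libraries. Its log2 fold change was 3.21 ± 0.49 (adjusted p = 0.0024, limma with Benjamini-Hochberg), and the depth-scaled ratio of counts was 12.7.

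CDK1 (chromosome 14, 64233945 to 64255290) had log2 values of 7.88, 8.20, 9.43, 9.98 and 9.45 in CTEPH, against 5.39, 5.99, 6.29, 4.92 and 5.47 in Sham. Its log2 fold change was 3.38 ± 0.40 (adjusted p = 3.6e-04, limma with Benjamini-Hochberg), or 10.4-fold. Among the CDC25 phosphatases, which remove the inhibitory phosphates from CDK1 and CDK2, no gene passed. CDC25C, which acts at mitotic entry, was at 6.30 ± 0.42 in CTEPH and 5.32 ± 0.91 in Sham (n = 5 per group, SD), a difference of 0.98 ± 0.42 (SE; limma, Benjamini-Hochberg adjusted p = 0.207). Its groups overlapped, because Sham library s2, at 6.40, was above CTEPH libraries s1 and s3. CDC25B was at 11.15 ± 0.13 in CTEPH and 11.20 ± 0.18 in Sham, with an adjusted p = 0.899. WEE1, the kinase that opposes CDC25, was at 9.69 ± 0.56 in CTEPH and 9.70 ± 0.27 in Sham (adjusted p = 0.990), with a wider spread between CTEPH pigs, from 9.0 in s3 to 10.43 in s1.

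**Figure D2:**
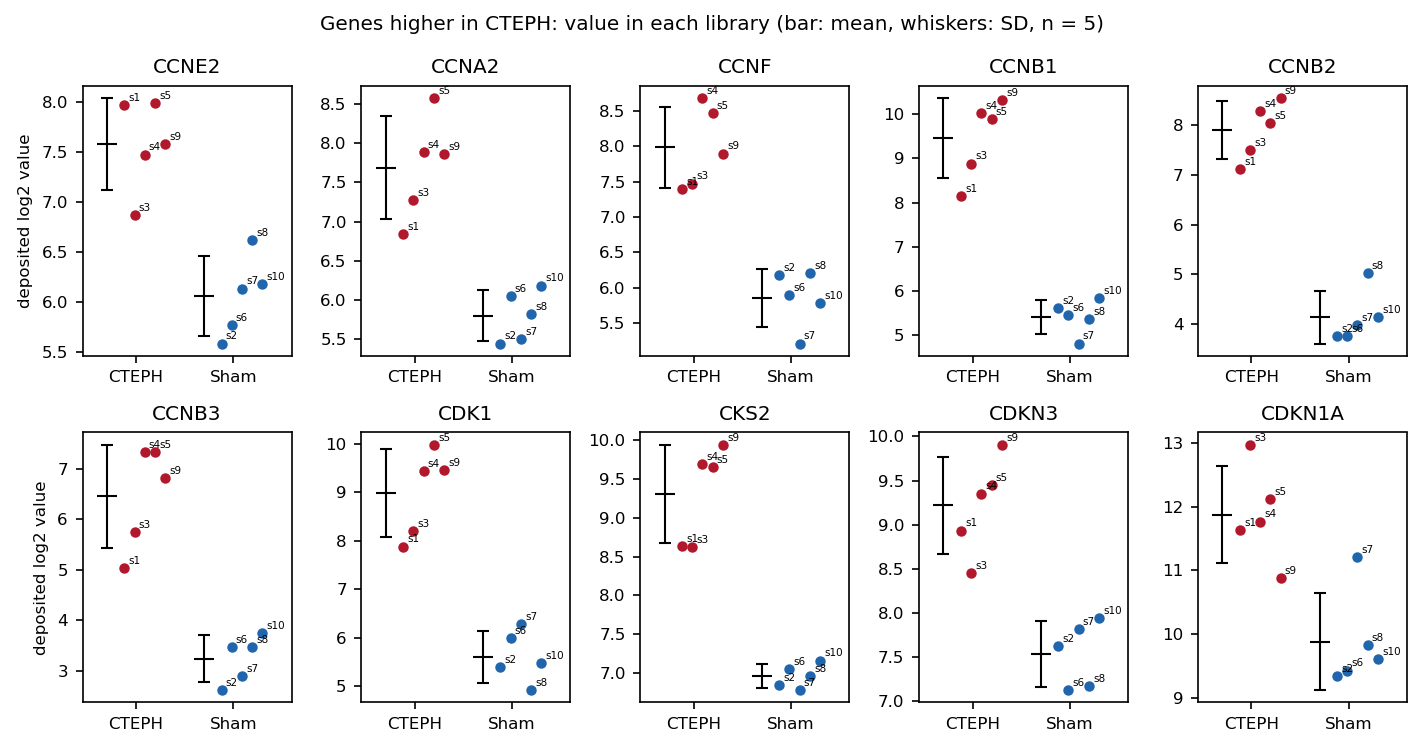
Deposited log2 value in each library (points, labelled by library) of the 10 genes that rose, CTEPH left and Sham right, with the mean and SD of each group (n = 5). The vertical axes differ between panels and do not start at 0. The 2 groups are apart in every panel but CDKN1A, where Sham library s7 at 11.20 exceeds CTEPH library s9 at 10.88.

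Both measured genes of S phase and G2 rose. CCNA2, the A cyclin of somatic cells (chromosome 8, 102260346 to 102266274), had log2 values of 6.84, 7.28, 7.88, 8.57 and 7.86 in CTEPH, against 5.45, 6.05, 5.51, 5.82 and 6.19 in Sham. The gap between the groups was narrower than for the B cyclins, 6.84 in CTEPH library s1 against 6.19 in Sham library s10. Its log2 fold change was 1.88 ± 0.32 (SE; limma, Benjamini-Hochberg adjusted p = 0.00476). CCNF, a cyclin that binds no CDK and serves as the substrate-binding part of an SCF ubiquitin ligase, stood at 7.40, 7.47, 8.68, 8.47 and 7.90 in CTEPH, against 6.18, 5.89, 5.21, 6.21 and 5.79 in Sham. Its log2 fold change was 2.13 ± 0.31 (adjusted p = 0.00165, limma with Benjamini-Hochberg), on 81 to 327 reads in CTEPH libraries and 13 to 45 in Sham libraries.

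The genes of the G1/S transition moved less, and 1 of 4 passed. CCNE2 (chromosome 4, 41802090 to 41821870), an activator of CDK2, had log2 values of 7.98, 6.87, 7.48, 8.0 and 7.59 in CTEPH, against 5.59, 5.77, 6.14, 6.62 and 6.19 in Sham. Here CTEPH library s1 was among the highest and s3 the lowest, unlike in the B cyclins, where s1 was the lowest. Its log2 fold change was 1.52 ± 0.28 (SE; limma, Benjamini-Hochberg adjusted p = 0.00869). Its relative CCNE1 was at 7.04 ± 0.46 in CTEPH and 6.24 ± 0.39 in Sham (n = 5 per group, SD; adjusted p = 0.134), and CDK2 at 9.83 ± 0.55 in CTEPH and 9.01 ± 0.20 in Sham (adjusted p = 0.0708, limma with Benjamini-Hochberg). In both genes 4 of 5 CTEPH libraries lay above the Sham libraries, and the exception was s1 for CCNE1 at 6.25 and s3 for CDK2 at 8.95. Without CTEPH library s1 CCNE1 passed, at a log2 fold change of 0.99 and an adjusted p = 0.0403, and without CTEPH library s3 CDK2 passed, at 1.04 and an adjusted p = 0.0078 (limma, Benjamini-Hochberg). Each passed in only that 1 of the 10 refits that left out 1 library. In the other 9 the adjusted p was up to 0.269 for CCNE1 and 0.151 for CDK2 (limma, Benjamini-Hochberg). CDC25A, the CDC25 phosphatase of the G1/S transition, was at 10.16 ± 0.30 in CTEPH and 9.96 ± 0.18 in Sham (adjusted p = 0.557).

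None of the 5 genes of the D cyclin group passed the test, and none reached an unadjusted p under 0.05 (limma). The D cyclins couple growth factor signals to the cycle, and 3 genes encode them. CCND1 stood at 12.17, 12.66, 13.19, 13.0 and 12.30 in CTEPH, against 12.65, 12.48, 12.24, 11.86 and 12.18 in Sham, a difference of 0.38 ± 0.21 (SE; limma, Benjamini-Hochberg adjusted p = 0.336). CTEPH libraries s1 and s9 lay within the Sham range and s3, s4 and s5 above it, s3 only just, at 12.66 against 12.65 in Sham library s2. CCND2 was at 12.16 ± 0.54 in CTEPH and 11.93 ± 0.23 in Sham, with both the lowest and the highest library in CTEPH, s5 at 11.31 and s9 at 12.80. CCND3 was at 10.07 ± 0.29 in CTEPH and 10.24 ± 0.12 in Sham. Of their kinase partner genes, CDK4 was at 10.73 ± 0.18 in CTEPH and 10.62 ± 0.12 in Sham, while CDK6 was at 8.16 ± 0.59 in CTEPH and 8.09 ± 0.26 in Sham (n = 5 per group, SD). The adjusted p-values of CCND2, CCND3, CDK4 and CDK6 were 0.619, 0.582, 0.682 and 0.918 (limma, Benjamini-Hochberg).

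**Figure D3:**
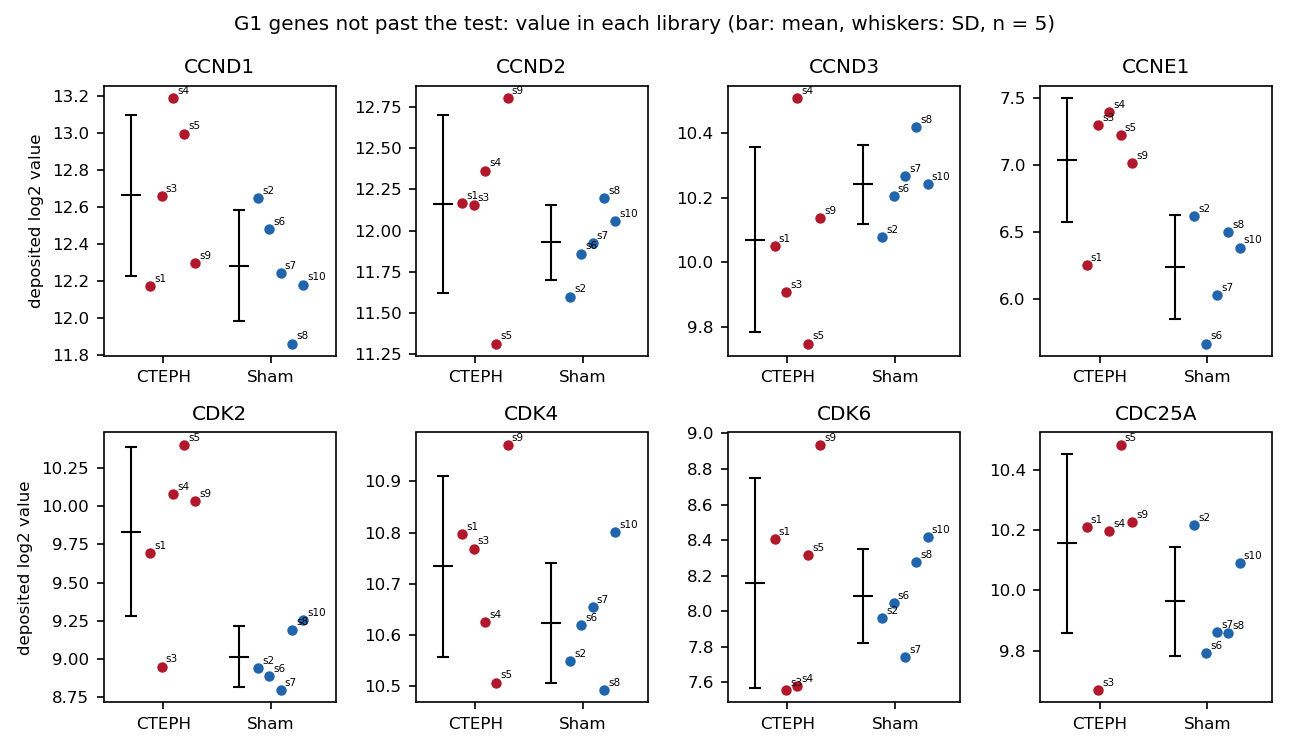
Deposited log2 value in each library (points, labelled by library) of 8 genes of G1 and of the G1/S transition that did not pass the test, CTEPH left and Sham right, with the mean and SD of each group (n = 5). The vertical axes differ between panels and do not start at 0. The groups overlap in all 8 panels, and in CCNE1 and CDK2 4 of 5 CTEPH libraries lie above the Sham libraries.

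CKS2 and CDKN3, which bind CDKs directly, also rose. CKS proteins are small subunits that bind CDK complexes and help them recognise phosphorylated substrates. CKS2 (chromosome 14, 904762 to 910292) had log2 values of 8.64, 8.62, 9.69, 9.66 and 9.94 in CTEPH, against 6.84, 7.05, 6.77, 6.96 and 7.16 in Sham. The Sham libraries were tightly grouped, and the log2 fold change was 2.35 ± 0.27 (SE; limma, Benjamini-Hochberg adjusted p = 2.5e-04). Its paralogue CKS1B, also a cofactor of the SCF ligase that degrades CDKN1B, was at 9.51 ± 0.33 in CTEPH and 9.10 ± 0.08 in Sham (n = 5 per group, SD; adjusted p = 0.193). How reads shared by such close paralogues were counted is not stated in the labels, so both values are uncertain to that extent. CDKN3, a phosphatase known in human cells to dephosphorylate CDKs, stood at 8.93, 8.45, 9.35, 9.45 and 9.91 in CTEPH, against 7.63, 7.13, 7.82, 7.17 and 7.94 in Sham. The groups of CDKN3 did not overlap, and its log2 fold change was 1.68 ± 0.27 (adjusted p = 0.0035, limma with Benjamini-Hochberg).

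Of the 6 measured CDK inhibitors, 1 rose. In the CIP/KIP family, whose members bind cyclin-CDK complexes, CDKN1A rose and CDKN1B and CDKN1C did not pass. CDKN1A (chromosome 7, 32354776 to 32363771), a p53 target that arrests the cycle, had log2 values of 11.63, 12.97, 11.76, 12.12 and 10.88 in CTEPH, against 9.34, 9.42, 11.20, 9.82 and 9.61 in Sham. The highest CTEPH pig was s3, which was among the 2 lowest CTEPH pigs for each B cyclin and CDK1, and the lowest was s9, which was among the 3 highest for them. Sham library s7 was more than 1 log2 unit above the other Sham libraries. The log2 fold change of CDKN1A was 1.99 ± 0.39 (SE; limma, Benjamini-Hochberg adjusted p = 0.0124), and it was 2.32 without s7 (adjusted p = 0.0023).

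CDKN1B, the inhibitor of quiescent cells, stood at 10.69, 10.51, 10.41, 10.55 and 11.29 in CTEPH, against 11.26, 11.10, 11.14, 11.42 and 11.15 in Sham. In CTEPH 4 libraries lay below all Sham libraries and s9 lay within their range. The difference was -0.52 ± 0.17 (SE; limma, Benjamini-Hochberg adjusted p = 0.0950), and without s9 the gene passed, at -0.67 and an adjusted p = 0.0081. Leaving out any other library did not make CDKN1B pass, and its limma adjusted p reached 0.198 without CTEPH library s4. CDKN1C was at 8.57 ± 0.73 in CTEPH and 9.03 ± 0.19 in Sham (n = 5 per group, SD; adjusted p = 0.414), with CTEPH library s4 at 9.68 and the other CTEPH libraries at 7.94 to 8.88.

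Of the INK4 inhibitors, which bind CDK4 and CDK6, 3 were measured and none passed. CDKN2C stood at 8.73, 9.30, 9.81, 10.07 and 10.54 in CTEPH, against 9.13, 8.50, 8.51, 8.57 and 8.58 in Sham, a difference of 1.03 ± 0.29 (SE; limma, Benjamini-Hochberg adjusted p = 0.0618). CTEPH library s1 lay within the Sham range and the other 4 lay above it. CDKN2D was at 8.48, 9.68, 9.87, 9.31 and 9.81 in CTEPH, against 8.67, 8.52, 8.73, 8.78 and 8.95 in Sham (adjusted p = 0.123), again with s1 as the exception. Without s1 both passed, CDKN2C at 1.27 (adjusted p = 0.0102) and CDKN2D at 0.94 (adjusted p = 0.0073, limma with Benjamini-Hochberg). Neither passed in the other 9 refits that left out 1 library, with adjusted p-values of up to 0.131 and 0.247 (limma, Benjamini-Hochberg). CDKN2B, which is induced by TGF-beta in many cells, was at 5.98 ± 0.30 in CTEPH and 6.16 ± 0.31 in Sham (n = 5 per group, SD; adjusted p = 0.749).

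**Figure D4:**
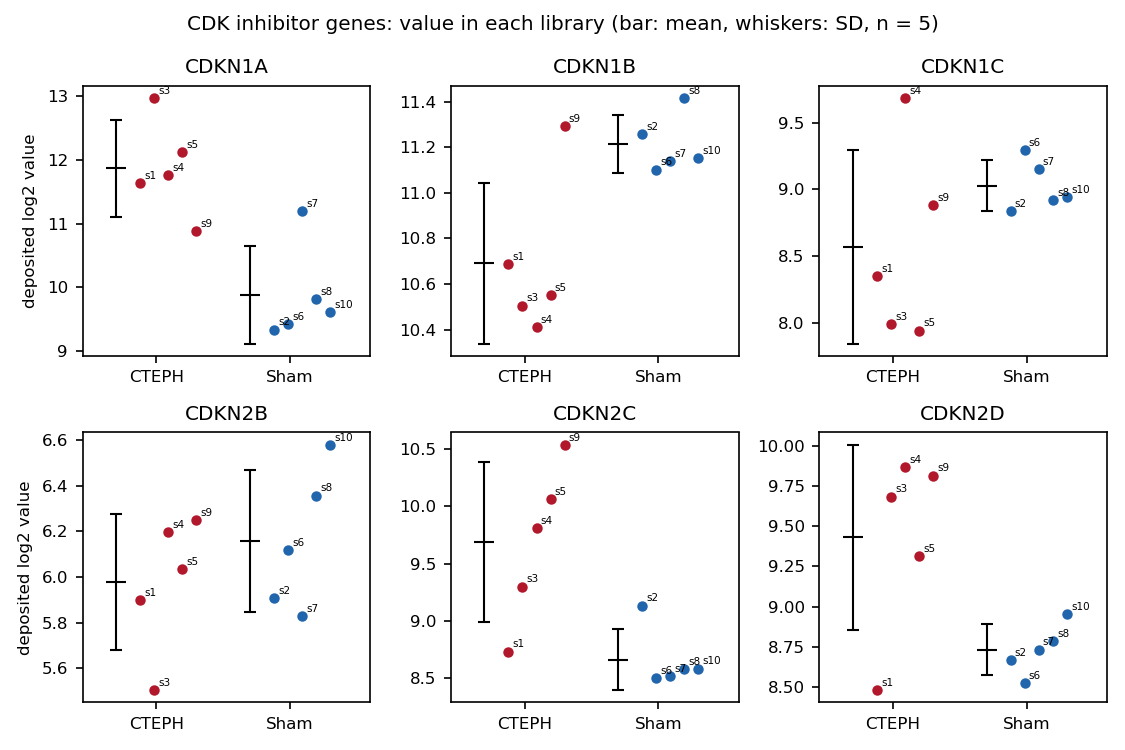
Deposited log2 value in each library (points, labelled by library) of the 6 CDK inhibitor genes measured, CTEPH left and Sham right, with the mean and SD of each group (n = 5). The vertical axes differ between panels and do not start at 0. CDKN1A is past the test, with a log2 fold change of 1.99, CDKN1B has 4 of 5 CTEPH libraries below the Sham libraries, and CDKN2C and CDKN2D have 4 of 5 above them.

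None of the 8 genes of CDK activation and transcription passed, and 6 of their 8 differences were negative, with a median log2 fold change of -0.23. CDK9, the kinase of the elongation factor P-TEFb, stood at 12.24, 11.69, 11.78, 11.29 and 11.48 in CTEPH, against 11.94, 12.48, 12.22, 12.44 and 12.28 in Sham, a difference of -0.58 ± 0.18 (SE; limma, Benjamini-Hochberg adjusted p = 0.0823). The groups overlapped through CTEPH library s1, and without it CDK9 passed, at -0.71 and an adjusted p = 0.0178. When any other library was left out CDK9 did not pass, its limma adjusted p being highest, at 0.177, without Sham library s6. Its cyclin partners CCNT1 and CCNT2 were at -0.15 ± 0.22 and -0.49 ± 0.26 (adjusted p = 0.748 and 0.319). CDK7 and CCNH, of the complex that activates other CDKs, were at 0.14 ± 0.18 and -0.22 ± 0.12, the Mediator kinase CDK8 at 0.12 ± 0.16, and CCNK and CCNL1, cyclins of transcription and splicing, at -0.26 ± 0.16 and -0.25 ± 0.26 (log2 fold change ± SE). The adjusted p-values of these 5 genes ran from 0.344 to 0.720 (limma, Benjamini-Hochberg).

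None of the 7 other measured cyclins and CDKs passed. CCNG1, a p53 target, was at 14.63 ± 0.40 in CTEPH and 15.10 ± 0.23 in Sham (n = 5 per group, SD), a difference of -0.47 ± 0.19 (SE; limma, Benjamini-Hochberg adjusted p = 0.193). CTEPH library s9, at 15.25, was the highest of the 10 libraries for this gene, and without it the gene passed, at -0.62 and an adjusted p = 0.0391. No other left-out library brought CCNG1 past the test, and without CTEPH library s4 its limma adjusted p was 0.352. CDK14 was at 10.74 ± 0.23 in CTEPH and 10.33 ± 0.27 in Sham (adjusted p = 0.173). The remaining 5, CCNG2, CCNI, CDK16, CDK17 and CDK18, had log2 fold changes of -0.33 to 0.18 and adjusted p-values of 0.353 to 0.968.

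**Figure D5:**
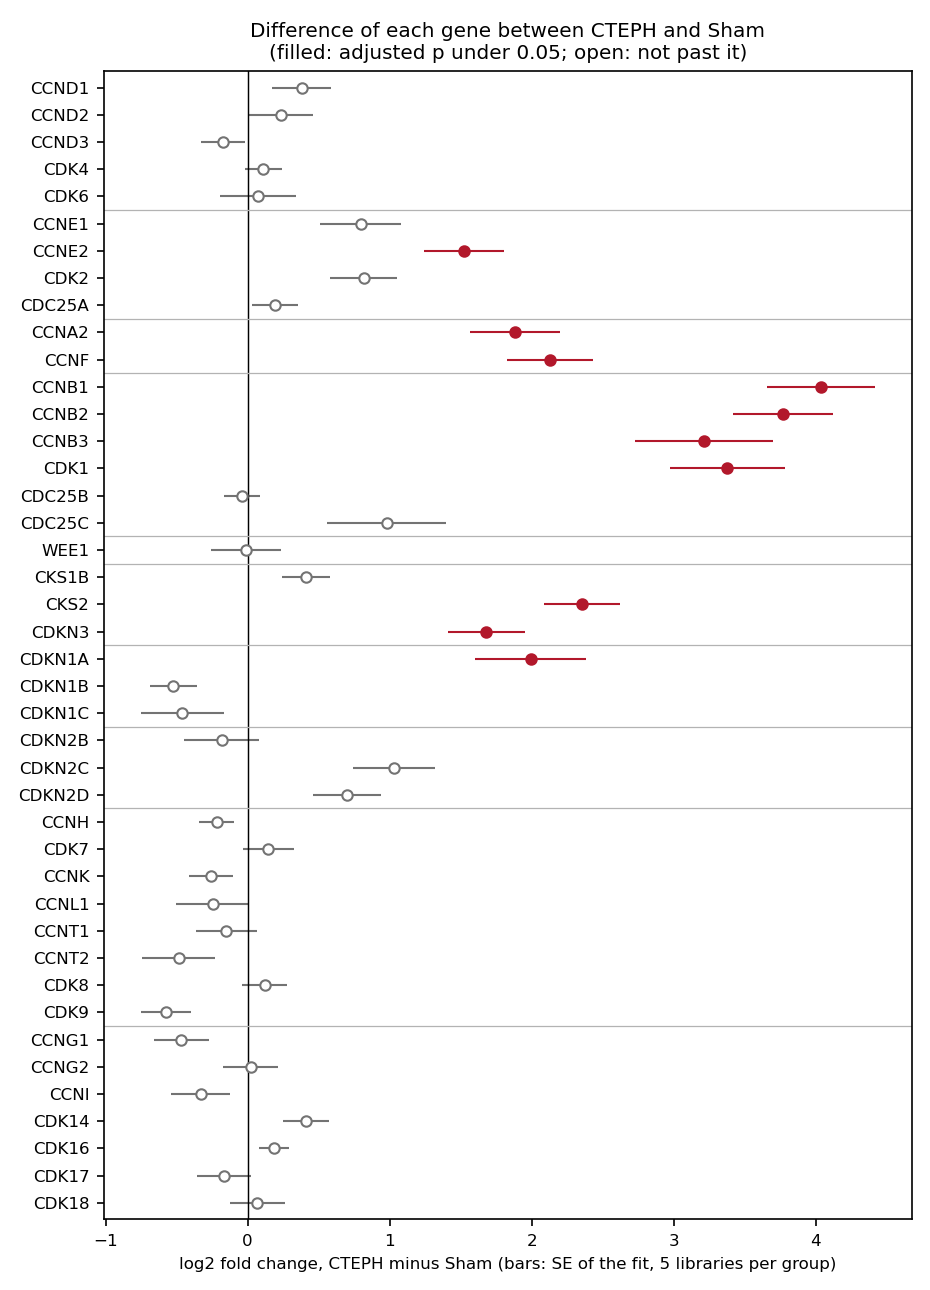
Log2 fold change of each of the 42 genes, CTEPH minus Sham, with the SE of the fit (5 libraries per group), filled where the adjusted p is under 0.05 and open where it is not. The filled points run from 1.52 for CCNE2 to 4.04 for CCNB1, and the open points lie between -0.58 for CDK9 and 1.03 for CDKN2C.

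The same few CTEPH pigs were often lowest or highest over the rising genes. Library s1 was the lowest CTEPH library in 6 of the 10 genes, s3 in 3 and s9 in 1, while s5 and s9 were the highest in 4 each and s3 and s4 in 1 each. The relative depths of s1 and s3 were 1.01 and 0.916, and that of s9, among the highest libraries for these genes, was the lowest of all. Each of the 10 rising genes kept its call in each of the 10 refits that left out 1 library, with CDKN1A reaching the largest adjusted p, 0.0345 (limma, Benjamini-Hochberg). When the test was made against a change of 1.5-fold, CCNE2, CCNA2, CDKN3 and CDKN1A no longer passed, at adjusted p = 0.202, 0.0701, 0.0738 and 0.140, and the other 6 did.

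Members of a family differed in how far they moved. All 23 pairs of measured genes within the B, D and E cyclins, CDK1, CDK2, CDK4 and CDK6, CKS, CDC25, CIP/KIP and INK4 genes were compared as the within-library difference of log2 values, a set of pairs chosen after the values were seen. The differences between CTEPH and Sham were past an adjusted p of 0.05 for 8 pairs (two-sided exact permutation test, Benjamini-Hochberg over the 23 pairs). Without CTEPH library s1 or Sham library s2 8 pairs still passed, but without any 1 of the other 8 libraries 0 passed, with 10 or 11 pairs at an unadjusted exact permutation p under 0.05, where the smallest possible p is 0.0159. CDK1 minus CDK2 was -0.84 ± 0.56 in CTEPH and -3.40 ± 0.70 in Sham (n = 5 per group, SD), so that CDK1 rose by 2.56 log2 units more than CDK2 (exact permutation p = 0.00794, adjusted p = 0.0365), and no smaller p can be reached with 5 pigs per group. CKS2 minus CKS1B was -0.20 ± 0.41 in CTEPH and -2.14 ± 0.13 in Sham, a change of 1.94 with the same exact permutation p. CDK1 also parted from CDK4 and CDK6, by 3.27 and 3.31 log2 units, and CDK2 from CDK6 by 0.75. In these 5 pairs the groups did not overlap.

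The CIP/KIP genes parted too. CDKN1A minus CDKN1B was 1.18 ± 1.05 in CTEPH and -1.33 ± 0.79 in Sham (n = 5 per group, SD), a change of 2.52 (exact permutation p = 0.0159, adjusted p = 0.0456 over the 23 pairs), and CDKN1A minus CDKN1C changed by 2.45 with the same p-values. CDKN2C minus CDKN2B changed by 1.21, also with these p-values. CCNE2 minus CCNE1 changed by 0.72, which did not pass (exact permutation p = 0.143, adjusted p = 0.204), so these 2 genes are not shown to differ in their rise. Nor are CCNB1 and CCNB2, whose within-library difference changed by 0.27 (adjusted p = 0.511). These differences compare how genes changed and say nothing of which gene is more abundant, since the values are not scaled by gene length.

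Other genes of the pathway were read from lists, which were chosen with earlier results of these data known. Their counts are therefore not separate support, and stand beside 2.83% of all genes rising and 1.79% falling. Among 21 measured genes of RB, E2F, MuvB and FOXM1, which control the transcription of cyclins, 7 rose and 0 fell (limma, Benjamini-Hochberg over all genes), and the median log2 fold change was 0.34. The S phase activator E2F1 rose by 3.54 ± 0.24 (SE), the mitotic activators FOXM1 and MYBL2 by 2.94 ± 0.44 and 2.25 ± 0.32, and the repressor E2F7 by 2.42 ± 0.38. RB1, the retinoblastoma gene that the CDKs inactivate by phosphorylation of its protein, was at -0.18 ± 0.16 (adjusted p = 0.580). Among 35 measured genes of the ubiquitin ligases that degrade cyclins and inhibitors, 5 rose and 0 fell: UBE2C by 4.66 ± 0.39, the anaphase activator CDC20 by 3.26 ± 0.34, UHRF1 by 2.83 ± 0.37, UBE2S by 1.27 ± 0.20 and DTL by 2.49 ± 0.42. UHRF1 is known chiefly for the maintenance of DNA methylation. The median of that list was 0.10.

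Among 14 measured genes of a proliferation reference list, 13 rose and 0 fell, and the median log2 change was 1.92, with the largest changes in BUB1 (3.98 ± 0.34) and TOP2A (3.60 ± 0.34), of mitosis and of chromosome untangling. MKI67 had no row under its symbol. Of 18 genes of p53 and the checkpoint kinases 1 rose and 0 fell, CHEK1, which restrains CDC25 phosphatases, by 1.27 ± 0.28 (limma, adjusted p = 0.0209). CHEK1 lost its call without CTEPH library s5 or Sham library s6 or s7, with an adjusted p of up to 0.0554. Of 23 genes of mitogen and growth inputs to D cyclins, CCN2 rose by 2.33 ± 0.50 and the MYC antagonist MXI1 fell by 0.83 ± 0.19. CCN2 was no longer past the threshold when Sham library s6 or s7 was left out (adjusted p at most 0.0531) and MXI1 when CTEPH library s3, s4 or s5 or Sham library s2, s8 or s10 was (at most 0.0703; limma, Benjamini-Hochberg).

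Markers of some other cell types moved with the groups. For comparison with the marker counts, 2.83% of all genes rose, 1.79% fell and 20.3% had an unadjusted p under 0.05 (limma). Negative differences outnumbered positive ones over all genes, with a median log2 fold change of -0.03. Of 12 measured macrophage markers (of 13 listed), 3 rose and 0 fell, SPP1, LYZ and TREM2, and the mean log2 value of the list was 9.17 to 9.76 in CTEPH and 8.39 to 9.05 in Sham, without overlap. Of 9 measured endothelial markers (of 10 listed), TEK and FLT1 fell and 0 rose, with list means of 11.07 to 11.55 in CTEPH and 11.52 to 12.25 in Sham. All 9 differences were negative, with a median log2 fold change of -0.41, and 5 had an unadjusted p under 0.05 (limma). Of 9 genes listed as smooth muscle and pericyte markers, DES and CNN1 rose and 0 fell. DES does not mark these cells alone, since cardiomyocytes also express it. The list means were 11.56 to 12.80 in CTEPH and 11.82 to 12.25 in Sham. The list did not move one way, with 5 positive and 4 negative differences, a median of 0.01 and the lowest at -0.61 (log2 fold change). Of 5 measured Schwann and neural markers SOX10 fell, with list means of 7.36 to 8.01 in CTEPH and 7.93 to 9.16 in Sham. Of 11 measured cardiomyocyte markers (of 13 listed), MYL2 rose and 0 fell. That list did not move one way either, with 5 positive and 6 negative differences and a median log2 fold change of -0.04. Leaving out 1 library at a time ended the call of TREM2 in 7 of 10 refits, of CNN1 in 6, of LYZ, TEK, FLT1 and SOX10 in 5 each and of MYL2 in 1, while SPP1 and DES passed in all 10. Of the 9 fibroblast, 7 T and NK, 3 B and plasma, 3 neutrophil and mast, 2 erythroid and 3 adipocyte markers measured, 0 passed (limma), and 2, 0, 0, 3, 0 and 0 had an unadjusted p under 0.05. No measured marker had a value of 0 in any library. The part of these cell types in the rise of the 10 genes was not tested.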

How the data were processed

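Right ventricular RNA of 5 CTEPH and 5 Sham pigs was sequenced, 1 library per pig, and the groups follow the sample titles. The authors deposited log2 values for 15638 Ensembl pig genes, which hold nearly the same distribution in each library (medians 9.305 to 9.308), as quantile normalization leaves, so a change shared by most genes cannot appear. Per the submitters' processing notes the tools were bcl2fastq 2.18.12, cutadapt 1.15, FastQC 0.11.5, featureCounts, edgeR 3.36.0 and limma 3.50.0 on Sscrofa11.1. Which aligner, annotation and strand setting were used, and how low genes were filtered, is not stated there. Per the labels the molecule is polyA RNA, while the kit named is for total RNA.

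CTEPH was tested against Sham by limma 3.58.1 under R 4.3.3 (intensity trend, no covariate, two-sided, Benjamini-Hochberg over all genes, called at an adjusted p under 0.05). No further filter was applied. The deposited values below a log2 value of 11 equal rank means over the 10 libraries of log2(2 × count + 1), which gave back whole counts, or their doubles, for 121479 values (77.7%), the largest error being 5.0e-09 where 1e-06 was tolerated. Reading back was tested on simulated data with 0 wrong values among 115487. Relative depth is the median ratio to the geometric mean over 9800 genes with at least 5 counts in each library. Total depth is unknown, because high values do not give back counts. In a simulation of CTEPH against Sham over 15638 genes, 43.5%, 81.5% and 95.0% of genes changed by 1, 2 and 3 on the log2 scale were recovered, with 4.40%, 5.23% and 5.94% of calls false. The simulation drew normal noise independently for each gene, with the same spread in every library. Its rates therefore do not cover genes that move together, low counts or libraries of unequal quality. Gene symbols were looked up by Ensembl identifier and found for 12378 genes, and coordinates, counted from 1, from the RefSeq table of Sscrofa11.1 by symbol. That table lists CDK6 as a long noncoding RNA and CDC25A on no placed chromosome.

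The members and lists were chosen with earlier results of these data known. The list of further cyclin and CDK families is not reported here. All measured members are named, and from each list up to 4 called genes with the smallest p, plus RB1. MKI67, also to be named, has no row. DTL and the called markers were named after their values were seen. Alternatives were another variance model, library weights, a filter on low genes, re-centring, a test against 1.5-fold, voom (limma) on the counts read back, and leaving out each library.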

Additional observations from a re-analysis of the deposited data

Results flagged for a closer look

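In 3 of the 84 groups of 5 libraries examined, 1 library stood apart from the other 4 by more than Dixon's 95% critical value allows, and chance flags about 1 in 20 groups, or 4.2 of 84. CDKN1A was at 11.20 in Sham library s7, with the other Sham libraries at 9.34 to 9.82. CDKN2C was at 9.13 in Sham library s2, with the others at 8.50 to 8.58. CCNG1 was at 14.69 in Sham library s6, with the others at 15.14 to 15.24. Without these libraries the log2 fold changes were 2.32 for CDKN1A (adjusted p = 0.0023), 1.15 for CDKN2C (adjusted p = 0.0639) and -0.57 for CCNG1 (adjusted p = 0.155, limma with Benjamini-Hochberg), so that each kept its direction and its side of the threshold.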

How the results depend on the processing

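Among the 42 genes the count that rose was 10 to 13 over the 10 refits without 1 library, and the count that fell was 0 to 2. No gene that passed in any fit changed its direction. Dropping the lowest 25% of genes left 5 rising genes, since CCNE2, CCNA2, CCNF, CCNB2 and CCNB3 are then not tested, and testing against 1.5-fold left 6. With library weights 2 fell. Over all genes, 443 rose and 280 fell. Without 1 library these counts were 270 to 570 and 117 to 392, with library weights 722 and 547, and against 1.5-fold 121 and 6. With the low genes dropped, 273 rose and 210 fell. With voom on the counts read back, on 10876 genes, 302 rose and 156 fell. Of 27 members with counts in all libraries, voom changed no call. The number of family pairs past the threshold was 0 to 8 without 1 library, at 8 without CTEPH library s1 or Sham library s2 and at 0 without any of the others, where the smallest possible exact permutation p is 0.0159, and 8 of 15 pairs on the counts, an alternative chosen after seeing the data. Re-centring changed no call of a member. No paired analysis was possible because no number is shared between CTEPH and Sham libraries. Low counts, 2 to 13 reads in Sham for CCNB2 and CCNB3, limit the precision of their fold changes.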
